A study of Mus musculus with 2 samples.

Results

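Within primary neurospheres grown in leukemia inhibitory factor (LIF), 171 cells had no unique molecular identifier (UMI, one per captured transcript) of 12 genes that mark DNA synthesis, mitosis, commitment or stress, and they are described here as marker-negative cells. They were chosen by a rule on measured values: at least 3000 UMIs, at least 500 detected genes, at most 10% mitochondrial UMIs and 0 UMIs of each of the 12 genes. The 171 cells are 7.02% (exact binomial 95% interval 6.04 to 8.11) of the 2436 cells that passed the same limits on UMIs, genes and mitochondrial share. The neurospheres, floating colonies of neural cells, were raised from cells of the lateral ventricle walls in the forebrain of CD1 mouse embryos. The medium was serum-free with LIF at 10 ng/mL and, in the plating step, an ingredient written EFH that is not explained. Colonies had to reach 50 μm after 7 to 10 days to be scored as primitive neurospheres. The labels hold 2 samples, both of this group. Their cells are in 1 Drop-seq count table of 4000 barcodes in which no barcode is tied to either sample. It was handled as a single sample without replicates. No drug, genotype or time was contrasted, no test was run, and every interval covers counting error only. The series text speaks of nuclei and the protocol of dissociated cells; barcodes are called cells throughout.

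Cells that leave the division cycle after mitosis lower the genes of DNA replication and of the mitotic spindle. Many of these genes are shut by repressor complexes that act through E2F sites and cell cycle homology elements in their promoters. D-type cyclins and their kinases act in G1, the interval before DNA synthesis, and are opposed by CDK inhibitors such as p21 and p15. In neural tissue, radial glia are the dividing stem and progenitor cells, and quiescent stem cells keep glial transcripts while cell cycle genes are low.

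The rule used 7 cell cycle genes and 5 sign genes. Pcna, the sliding clamp of replication, had a UMI in 1522 of the 2436 cells (62.5%) and was the only reason for leaving out 66 of them. Rrm2, a subunit of ribonucleotide reductase, had one in 59.2%, the mitotic kinase gene Cdk1 in 54.8%, the topoisomerase gene Top2a in 54.1%, Mki67, which encodes the Ki-67 antigen, in 47.9%, the mitotic ubiquitin-conjugating enzyme gene Ube2c in 45.8% and the S phase cyclin gene Ccne2 in 22.3%. Of the sign genes, the Notch target Hes5 had a UMI in 16.9% of cells, the Notch ligand genes Dll3 and Dll1 in 13.3% and 11.3%, the hypoxia-responsive gene Bnip3 in 11.9% and the stress gene Chac1 in 5.54%. These 12 genes chose the cells, and no value of them is given as a result. All other genes were counted in the same cells and many vary together with the rule genes, so their ratios are a description of what the rule selected.

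The marker-negative cells were shallower than the rest. They had 3005 to 9663 UMIs, with a median of 4114, against a median of 5298 in the 2265 other cells. The share of cells that met the rule was 12.6% (10.1 to 15.4) between 3000 and 3999 UMIs, 8.32% between 4000 and 4999, 6.15% between 5000 and 6999 and 1.65% (0.825 to 2.93) from 7000 UMIs up. Every cell was therefore thinned at random to 3000 UMIs before values were compared, and levels are given as CPM, UMIs scaled to 1e+06 thinned UMIs. When the other cells were thinned in the same way, 124 of 2265 (5.47%) also held no UMI of the 12 genes, so a fraction of the other cells met the rule at this depth and failed it at their own. At equal depth the marker-negative cells had a median of 1673 detected genes and the others 1703. The mitochondrial share had a median of 3.31% against 2.83%, ribosomal protein genes 8.49% against 8.44%, and the nuclear RNA Malat1 0.276% against 0.219%. With the other cells weighted to the depths of the marker-negative cells the S phase list described below was at a ratio of 0.311, and with a mitochondrial limit of 5% at 0.286, against 0.297. The part of nuclear RNA in the ratios was not tested.

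The cells carried the transcripts of radial glia. Vim, encoding the intermediate filament vimentin, had at least 1 UMI in each of the 171 thinned cells, with a median of 12 and a highest value of 38. Fabp7, the brain lipid-binding protein gene of radial glia, was missing from 1 cell and had a median of 20 UMIs. The radial glia and stem cell list of 24 genes summed to between 4 and 116 UMIs per cell, with a median of 49, and stood at 17053 CPM (16697 to 17414), 1.10 times (1.08 to 1.12) the level in the other cells. The groups overlapped almost entirely on this list, since the other cells ran from 9 to 131 UMIs with a median of 44. Of its 17 genes with enough counts to compare, Ednrb, the endothelin receptor B gene, was the only one at least 1.5-fold higher, at 466 CPM against 278 (ratio 1.67, 1.46 to 1.92), and none was lower by that factor. Among all genes compared, 2.94% were higher and 9.8% lower by it. Under other settings Ednrb ranged from 1.43 to 2.30, so it did not stay past 1.5-fold throughout. The neural stem cell transcription factor genes Sox2 and Sox9 had ratios of 0.861 (0.741 to 0.996) and 1.17, and Nes, encoding nestin, 1.07. Intermediate progenitor genes such as Btg2 and Hes6 stood at 552 CPM in sum against 480 CPM.

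The marker-negative cells had fewer UMIs of cell cycle genes outside the rule than the other cells, and every one had some. The S phase list and the G2/M list, 106 genes with the rule genes left out, summed to between 2 and 54 UMIs of 3000 per marker-negative cell, with a median of 12 and quartiles of 9 and 16. The 2136 cells with a UMI of a cell cycle rule gene ran from 4 to 138 with a median of 49, and 1 marker-negative cell reached that median. The overlap at the lower end was wide: 76 of the 171 cells (44.4%) were at or above 14 UMIs, the 10th percentile of the cells with a cell cycle rule gene. The label "non-cycling" therefore describes 0 UMIs of 7 genes at this depth, in cells that held up to 54 UMIs of other cell cycle genes. No level of free RNA in the droplets was estimated, so single UMIs of these genes are not read as expression.

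**Figure D1:**
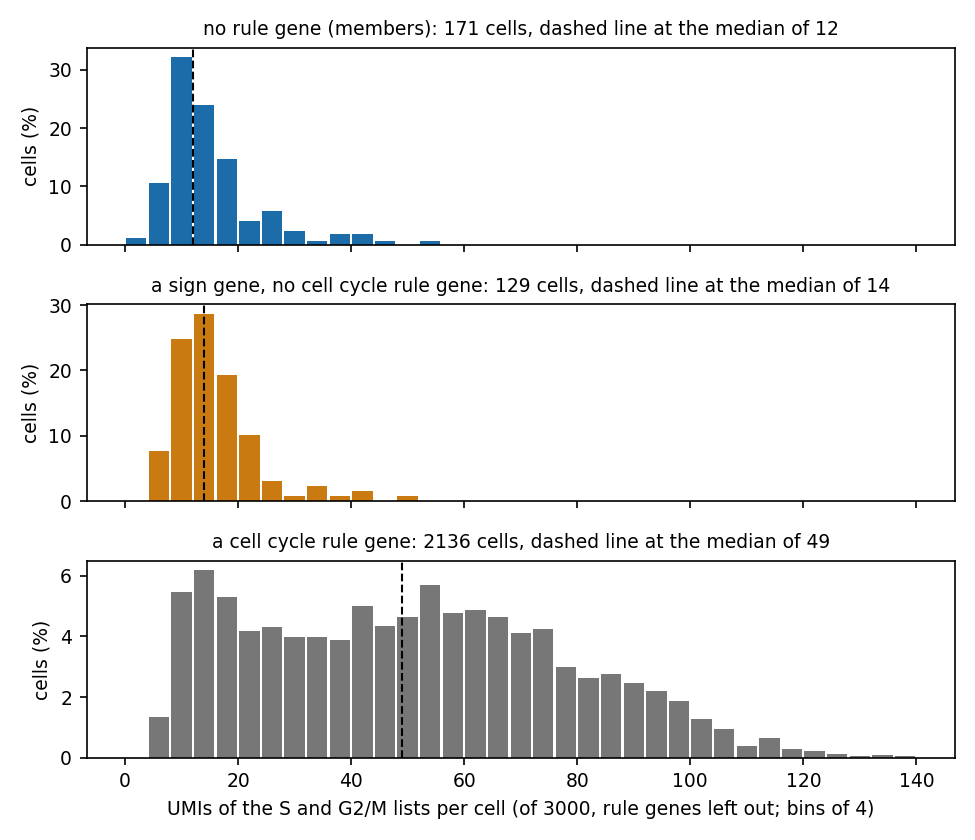
Summed UMIs of the S phase and G2/M lists per cell (x axis, of 3000 UMIs, rule genes left out) against the percentage of cells in each group (y axis). The 171 marker-negative cells centre on 12 UMIs, close to the median of 14 in the 129 cells with a sign gene only, while the 2136 cells with a cell cycle rule gene spread from 4 to 138.

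A gene was compared if at least 20 UMIs were expected in the marker-negative cells had both groups had the same level, which left 4594 genes outside the rule. Their median ratio, marker-negative over other cells, was 0.992, and the quartiles were 0.839 and 1.15. Of these genes, 450 (9.8%) were lower by a factor of at least 1.5 and 135 (2.94%) were higher by it. By larger factors, 233 genes were lower at least 2-fold, 97 at least 4-fold and 41 at least 10-fold, and 6 genes were higher at least 2-fold. The limit on expected UMIs draws mostly on the level in the other cells, so genes low in the marker-negative cells passed it and genes scarce elsewhere did not. Higher genes made up 12.1%, 23.1% and 37.1% of all genes past the fold with limits of 50, 20 and 5 expected UMIs, so the balance between the sides depends on it. Of the 450 lower genes, 85 are on the S phase or G2/M list and 352 are on none of the 40 gene lists used here.

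**Figure D2:**
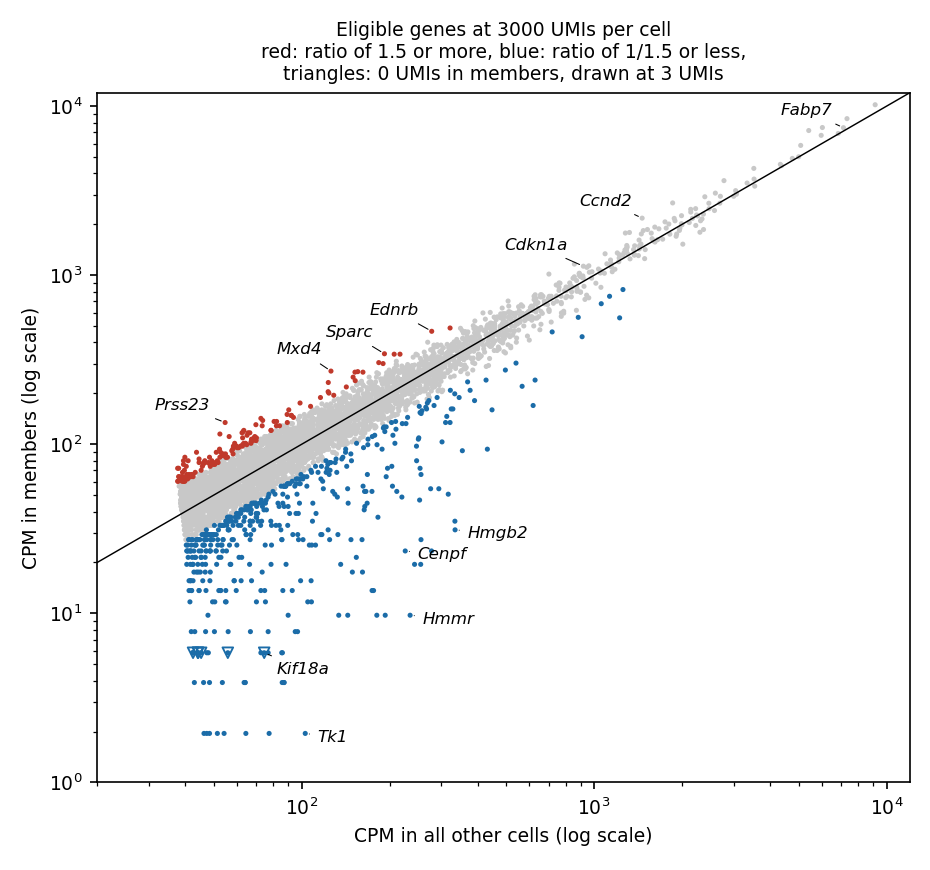
Level of each of the 4594 compared genes in the other cells (x axis, CPM, log scale) against the marker-negative cells (y axis, CPM, log scale), with the line of equal levels. Blue points, 450 genes lower by at least 1.5-fold, extend far below the line, while red points, 135 genes higher by that factor, stay close to it.

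The lowest genes included motors, kinases and scaffolds of the mitotic spindle. Kif18a, a kinesin that positions chromosomes on the spindle (chromosome 2, 109280738 to 109341747, plus strand, mm10), had 0 UMIs in the marker-negative cells and 506 UMIs, or 74.5 CPM, in the others. Against a floor of 3 UMIs over the whole group, or 5.85 CPM, it was at least 12.7-fold lower. The exact interval of its ratio ends at 0.0969, which is a weaker bound. Kif2c, a microtubule-depolymerizing kinesin, Cdca2, a regulator of mitotic phosphatase, the spindle checkpoint kinase gene Ttk, the cytokinesis kinesin Kif20a and the kinase gene Melk also had 0 UMIs, and were at least 9.56-, 7.75-, 7.57-, 7.55- and 7.27-fold lower against that floor. Their exact intervals end at ratios of 0.129, 0.160, 0.163, 0.164 and 0.170. For 3 of these 6 genes the 0 belongs to this draw of UMIs: a second thinning of the same cells gave ratios of 0.0548 for Kif18a, 0.0463 for Ttk and 0.0926 for Kif20a, and the sums before thinning gave 0.0468, 0.0269 and 0.0760. Kif2c, Cdca2 and Melk were at 0 in both of these as well. Tk1, the thymidine kinase of S phase, had 1 UMI against 699 (1.95 against 103 CPM, ratio 0.0189, 0.000479 to 0.106). Single UMIs were also all that was found of Aspm, the spindle pole gene mutated in microcephaly, of the chromokinesin gene Kif4, of the mitotic kinase gene Aurka, of the cohesin protector gene Sgol1, of the helicase gene Blm, of the cytokinesis gene Ect2 and of the kinetochore gene Spdl1. Hmmr, a spindle-binding protein gene, had 5 UMIs against 1596 (ratio 0.0415, 0.0135 to 0.0970), and Ccna2, encoding cyclin A2, had 5 against 1228 (0.0539, 0.0175 to 0.126). Of the 20 lowest genes, 11 are on the S phase or G2/M list, and the others include Kif18a, Kif20a, Melk, Aspm, Kif4 and Kif22.

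The promoters of these genes are shown because many of the lowest genes share short sequence elements there. Windows holding a match were taken first, in order of ratio, so each printed window holds a match because of the choice. Melk and Tk1, also among the 20 lowest genes, held neither a CCAAT box nor a homology region and are not printed. A printed window also had to start within 250 bases of the gene's annotated 5′ end. The windows run from 250 bases before to 50 after the annotated start, were taken from RefSeq on GRCm38.p6, the assembly behind mm10, and are written 5′ to 3′ on the strand of the gene. Capitals mark matches, on either strand, to the CCAAT box (CCAAT), the cell cycle homology region (TTTGAA), 2 forms of the E2F site (TTTCCCGC and TTTGGCGC) and a FOXO site (GTAAACA). No base is shared between matches of different elements in these windows.
Ttk, chr9:83834439-83834738, plus strand: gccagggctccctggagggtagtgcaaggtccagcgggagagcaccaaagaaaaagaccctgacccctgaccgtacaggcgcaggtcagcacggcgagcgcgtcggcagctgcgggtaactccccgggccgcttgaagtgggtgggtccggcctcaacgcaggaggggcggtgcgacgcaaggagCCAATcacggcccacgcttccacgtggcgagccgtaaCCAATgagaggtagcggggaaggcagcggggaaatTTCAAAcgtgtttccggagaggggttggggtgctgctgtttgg
Kif4, chrX:100625815-100626114, plus strand: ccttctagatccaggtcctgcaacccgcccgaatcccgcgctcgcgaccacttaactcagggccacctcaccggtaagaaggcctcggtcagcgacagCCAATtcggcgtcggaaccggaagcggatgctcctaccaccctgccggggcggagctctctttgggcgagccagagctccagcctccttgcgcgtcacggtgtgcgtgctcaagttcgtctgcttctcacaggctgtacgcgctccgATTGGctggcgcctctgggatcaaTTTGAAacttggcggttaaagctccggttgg
Kif18a, chr2:109280488-109280787, plus strand: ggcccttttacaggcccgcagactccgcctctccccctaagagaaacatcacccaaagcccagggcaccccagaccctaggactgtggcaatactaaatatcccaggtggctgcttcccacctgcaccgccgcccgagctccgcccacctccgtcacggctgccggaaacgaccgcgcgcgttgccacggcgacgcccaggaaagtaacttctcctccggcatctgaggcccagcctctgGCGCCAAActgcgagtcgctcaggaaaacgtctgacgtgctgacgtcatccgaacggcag
Mxd4, chr5:34187661-34187960, minus strand: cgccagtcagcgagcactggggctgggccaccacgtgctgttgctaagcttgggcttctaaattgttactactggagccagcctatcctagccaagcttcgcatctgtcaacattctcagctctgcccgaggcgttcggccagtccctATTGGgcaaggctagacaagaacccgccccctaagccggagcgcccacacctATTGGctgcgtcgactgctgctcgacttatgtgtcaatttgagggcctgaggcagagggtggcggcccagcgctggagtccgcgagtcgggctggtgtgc
The Ttk window holds 2 CCAAT boxes, whose first bases lie at -65 and -28 from the start, and 1 homology region at 8, so the elements follow each other within a short stretch. Kif4 has the same set of elements, with CCAAT boxes at -152 and -5, the latter on the opposite strand, and a homology region at 20. Kif18a, which shares a ratio of 0 with other genes, lacks both of these elements and holds 1 E2F form at -10. Mxd4, the third highest gene, is also shown and holds 2 CCAAT boxes without a homology region. Other high genes differ: the window of Gng3, the second highest, holds a homology region at -243 and no CCAAT box. That of Shc4, the fourth, holds a CCAAT box at -109 only.

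Among the 20 lowest genes, 17 matched a RefSeq window, and 9 of those 17 (52.9%) held both a CCAAT box and a homology region: Ttk, Aspm, Kif4, Aurka, Ect2, Hmmr, Spdl1, Plk1 and Kif22. Counts here take the window nearest to each gene's 5′ end at any distance. The limit of 250 bases set for printed windows was not applied to them. Over the 450 lower genes, 362 windows were matched and 62 (17.1%) held both, against 4.31% of the 3318 windows of compared genes that were not lower and 7.16% of all 27025 windows in the table. The homology region, with or without a CCAAT box, was found in 28.2% of the windows of lower genes and 10.6% of those of genes not lower, and without one in 40 of 362 and 210 of 3318, and either E2F form in 14.1% and 3.01%. The FOXO site was as frequent in both, at 2.21% and 2.20%. None of the 18 matched windows of the 20 highest genes held both a CCAAT box and a homology region. A CCAAT box was found in 7 of these 18 (38.9%), against 39.7% of the windows of genes not lower. A homology region was found in 1 of the 18. Because only 4.31% of the windows of genes not lower held both, 18 windows are too few to tell the absence of the pair from that share. For the 135 higher genes as a whole the count is void, because 79.3% of them, fewer than the 80% required, matched a window. These are counts of letters in a window, without any measure of binding. The cells were chosen by cell cycle genes, and many of the lower genes vary together with those. The shares of these elements therefore describe what the rule selected and are no test of them.

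The S phase list stood at 1372 CPM (1273 to 1478) in the marker-negative cells and 4624 CPM in the others, a ratio of 0.297 (0.275 to 0.320). Of its 37 compared genes 36 were lower by at least 1.5-fold, with a median ratio of 0.280, beside 9.8% lower among all compared genes. The replicative helicase subunit genes Mcm3 and Mcm4 marked the range of the 6 Mcm genes, at 0.252 and 0.411, the DNA ligase gene Lig1 0.221 (0.143 to 0.327), and Gmnn, encoding the licensing inhibitor geminin, 0.118. The replication genes on the list were thus lower nearly without exception.

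The G2/M list was at 3528 CPM against 11365 CPM, a ratio of 0.310 (0.296 to 0.325). Of its 52 compared genes 49 were lower, beside 9.8% of all compared genes, with a median ratio of 0.161. Hmgb2, a chromatin protein gene of dividing progenitors, stood at 31.2 CPM against 335 (ratio 0.0933, 0.0532 to 0.152). Cenpf, a kinetochore protein gene, stood at 23.4 against 226 CPM, and Cdc20, an activator of the anaphase-promoting complex, at 23.4 against 278 CPM. The 3 that were not lower by this factor were Psrc1, encoding a spindle protein, at 1.03 (0.829 to 1.25), the ubiquitin ligase gene G2e3, at 0.676, and the heterochromatin protein gene Cbx5, at 0.740. Of the list's 1810 UMIs in the marker-negative cells, most per gene came from Cbx5 (293 UMIs), Anp32e (237 UMIs) and Arl6ip1 (222 UMIs), genes that cells also use outside mitosis.

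Chromatin and nuclear transport genes that accompany replication were lower by less. Their list of 15 genes had a ratio of 0.585 (0.553 to 0.618), and 7 of 11 compared genes were lower by at least 1.5-fold, beside 9.8% of all compared genes. The histone variant gene H2afx was at 0.259, Ezh2, encoding the methyltransferase of the Polycomb repressive complex, at 0.357 (0.283 to 0.445), the chromatin protein gene Dek at 0.388 and the maintenance DNA methyltransferase gene Dnmt1 at 0.497. Nuclear transport was nearer to the other cells, with Ranbp1 at 0.656 and Ran at 0.713. Histone and tubulin genes with near-identical copies, H2afz and Tuba1b among them, may take each other's reads, which leaves their counts uncertain. Genes of ribosome assembly were also lower as a group, at a ratio of 0.827 (0.797 to 0.859) with a median of 0.828 over 13 compared genes, although only Rrp9, at 0.612 (0.330 to 1.04), was past 1.5-fold. Its interval includes 1, and its ratio was 0.988 with the rule applied after thinning and 1.21 without unread-base and near-identical barcodes. Ncl, encoding nucleolin, and Npm1, encoding nucleophosmin, were at 0.759 and 0.804. Ribosomal protein genes themselves differed little, with 0 of 74 past the fold in either direction and a summed ratio of 0.995 (0.985 to 1.004).

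Genes of G1 were at or above the level of the other cells in the cyclin D pair. Ccnd2, encoding cyclin D2 (chromosome 6, 127125162 to 127152193, minus strand), stood at 2175 CPM against 1460 (ratio 1.49, 1.40 to 1.59), had a median of 6 UMIs per cell and was at 0 in 6 of the 171 cells. Ccnd1, encoding cyclin D1, stood at 2910 against 2391 CPM (1.22, 1.15 to 1.28), and the partner kinase gene Cdk4 at 797 against 838 CPM. The list of G1 cyclins, kinases, Rb proteins and E2F factors had a ratio of 1.21 (1.16 to 1.25) in sum but a median of 0.918 over its 8 compared genes, because the sum is carried by the cyclin D genes. The only gene of it past the fold was Cdc25a, a phosphatase that opens the way to S phase, at 27.3 against 49.7 CPM (0.549, 0.296 to 0.935). Among all compared genes 9.8% were lower past it.

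The CDK inhibitor genes differed in both directions. Cdkn2b, encoding p15 (chromosome 4, 89306299 to 89311039, minus strand), was higher, at 136 against 80.5 CPM (1.70, 1.30 to 2.18). Under other settings Cdkn2b ranged from 1.28 to 1.93, so it did not stay past 1.5-fold throughout. Cdkn2c and Cdkn2d, encoding the related inhibitors p18 and p19, were lower, at 15.6 against 58.7 CPM (0.266, 0.114 to 0.528) and 35.1 against 78.4 CPM (0.447, 0.263 to 0.714). Cdkn1a, encoding p21, the most abundant of the 7 genes in UMIs, was at 1131 against 919 CPM (1.23, 1.13 to 1.34) with a median of 3 UMIs per cell and 24 cells at 0. Cdkn1b, encoding p27, an inhibitor often raised in resting cells, was at 121 against 164 CPM (0.739, 0.562 to 0.954). Cdkn1c, encoding p57, had 14 UMIs, too few to compare. The list thus had 1 gene higher and 2 lower of 6, with a summed ratio of 1.12. Among all compared genes 2.94% were higher and 9.8% lower, and 6 genes are too few to set apart from these shares. Against the 129 cells with a sign gene only, described below, none of 6 compared genes was higher past the fold and 1 was lower.

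Cdkn1a is also a p53 target, and that list as a whole had a ratio of 1.20 (1.14 to 1.26) and a median of 1.22 over 13 compared genes. Of these 13, 2 were higher past the fold, beside 2.94% of all compared genes: Trp53inp1, which promotes p53-dependent arrest and death, at 129 against 73.3 CPM (1.76, 1.34 to 2.27), and Bbc3, encoding the death-promoting protein Puma, at 64.3 against 39.1 CPM (1.64, 1.11 to 2.36). Under other settings Trp53inp1 ranged from 1.37 to 1.77 and Bbc3 from 1.36 to 2.58, so neither stayed past 1.5-fold throughout. Mdm2, the ubiquitin ligase of p53, was at 1.48 (1.08 to 1.99) and Bax at 1.22 (1.10 to 1.35), short of the fold. Ccng1, Phlda3 and Gdf15, other targets, were between 1.004 and 1.03. Per cell the list summed to 2 to 31 UMIs with a median of 10, against 0 to 30 with a median of 8, so the groups overlapped. Against the 129 cells with a sign gene only, described below, the list was at 1.08 (1.005 to 1.16).

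The quiescence list did not stand apart from the other cells as a whole. Its ratio was 1.05, with an interval that ends at 1.11 and starts at 1, its median over 13 compared genes 1.03, and none of the 13 lay past the fold in either direction. With the rule on the 7 cell cycle genes alone the list was at 1.14. Against the 129 cells with a sign gene only, described below, it was lower, at 0.860 (0.801 to 0.924). Of 16 genes compared there, 3 were lower past the fold, beside 5.46% of all genes compared, and none was higher. Id2 and Id3, inhibitors of differentiation downstream of BMP, were at 1.31 (1.05 to 1.61) and 1.05, Aldoc, an astrocyte and quiescent stem cell enzyme gene, at 1.03 (0.868 to 1.21), and Nfib, a glial transcription factor gene, at 0.810. Several of the classical quiescence genes were too scarce to compare: Hopx had 1 UMI in the marker-negative cells, Vcam1 3, Clu 5 and Id4 0. The exact Poisson interval of 0 UMIs ends at 7.19 CPM. The FOXO factor genes Foxo1 and Foxo3 had 8 and 16 UMIs.

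The genes with the highest ratios lay outside the lists. None of the 20 highest is on any list, and their counts were small, 37 to 139 UMIs. Prss23, encoding a secreted serine protease (chromosome 7, 89507783 to 89527187, minus strand), led with 134 against 54.7 CPM (2.46, 1.87 to 3.18), although 133 of the 171 cells had none and 1 cell held 11 UMIs. Gng3, a G protein subunit gene, was at 115 against 52.5 CPM (2.19, 1.63 to 2.89). Mxd4, whose product dimerizes with Max and opposes Myc (chromosome 5, 34173883 to 34187720, minus strand), was at 271 against 126 CPM (2.15, 1.78 to 2.58) and had the most UMIs of the 20, 139. It was at 0 in 89 cells and reached 7 UMIs in 1. Shc4, an adaptor of receptor kinases, Fam13c and the endosomal sorting gene Stam2 followed at 2.10, 2.05 and 2.03. Pdcd4, encoding an inhibitor of translation initiation, had 119 UMIs, at 232 against 123 CPM (1.88, 1.54 to 2.28). The remaining 13 were Rgs16, Pnrc1, Acap3, Pcmtd2, Jhdm1d, Ip6k2, Acn9, Enho, Araf, Dpf3, Ifnar1, 4931406C07Rik and Psme2b, from 1.97 to 1.84. Psme2b is a near-identical copy of another gene, so its counts are uncertain.

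The high side depended on the draw of UMIs. A second random thinning gave 158 higher genes, of which 80 were among the 135 (59.3%), while 349 of the 450 lower genes (77.6%) were found again. With at least 50 expected UMIs, 21 genes were higher and 152 lower. Over the 15 alternatives computed for single genes, Mxd4 ranged from 1.92 to 2.42 and Pdcd4 from 1.62 to 2.11. Shc4 ranged from 1.03 to 2.12, Araf from 1.14 to 1.90, Ifnar1 from 1.13 to 1.89, Acn9 from 1.17 to 1.97 and Prss23 from 1.95 to 4.97, so for these the size of the ratio was not settled by the data.

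**Figure D3:**
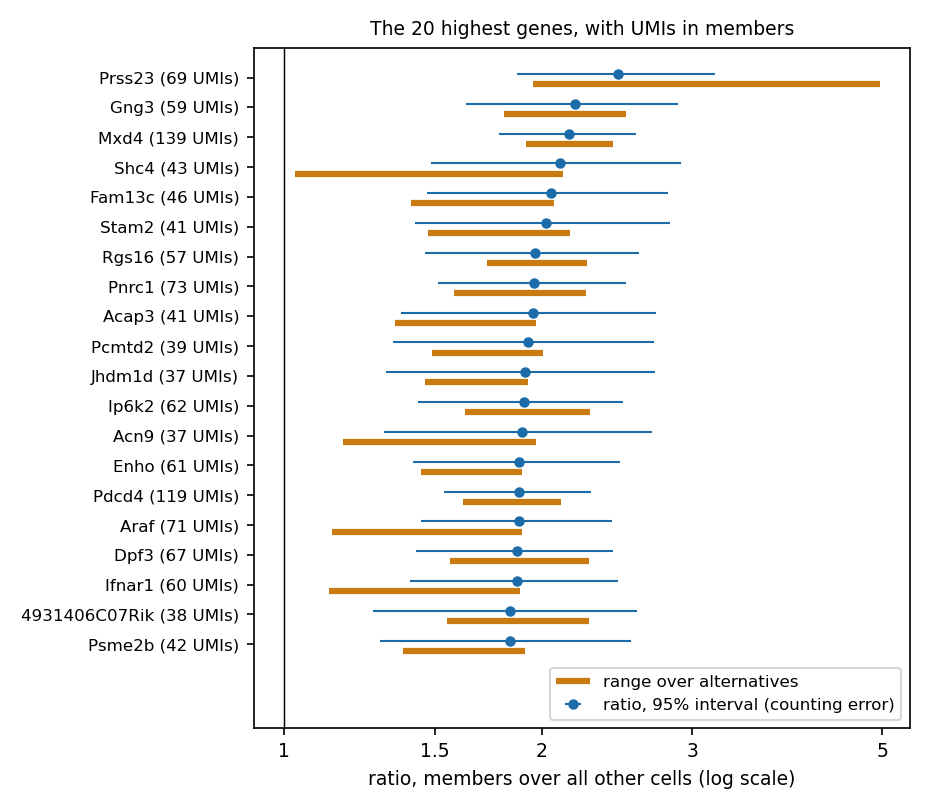
Ratio of marker-negative to other cells (x axis, log scale) for the 20 highest genes, with the 95% interval of counting error in blue and the range over the alternatives in orange. Mxd4, with 139 UMIs, has the narrowest interval of the 3 leading genes, and Shc4, Araf, Ifnar1 and Acn9 come within 1.2-fold of equality under an alternative.

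Lists of progenitor activity, adhesion and degradation were moderately higher without many single genes past the fold. Among all compared genes 2.94% were higher past it, and 1 gene of 8 or of 12 is too few to set apart from that share. The activated progenitor list was at 8203 against 6319 CPM (1.30, 1.26 to 1.34), with none of 8 compared genes past 1.5-fold, a median of 1.22 and not all of them above 1; it includes Ccnd1 and Ccnd2, and otherwise Olig1, a transcription factor gene of ventral and oligodendrocyte progenitors, at 1.39 (1.30 to 1.49), and the epidermal growth factor receptor gene Egfr, at 1.36 (1.09 to 1.68). The matrix and adhesion list was at 1.23 (1.19 to 1.27), led by Sparc, a secreted matrix glycoprotein gene, at 343 against 192 CPM (1.79, 1.52 to 2.09), the only one of 12 past the fold. The lysosome and autophagy list was at 1.26 (1.19 to 1.34) with a median of 1.31 over 12 compared genes, of which Map1lc3a, an autophagosome protein gene, was past the fold at 1.61 (1.20 to 2.12). The immediate early list was at 1.31 (1.22 to 1.41), with Klf6 at 1.56 (1.28 to 1.88) as the 1 gene of 8 past the fold. Under other settings Sparc ranged from 1.41 to 1.84, Map1lc3a from 1.32 to 1.74 and Klf6 from 1.28 to 1.66. None of these genes stayed past 1.5-fold throughout. Mitochondrial genes summed to 1.16 (1.14 to 1.18) and the nuclear RNA list, chiefly Malat1, to 1.31 (1.24 to 1.37), so measures of RNA quality were shifted by similar amounts. With a mitochondrial limit of 5% these lists were at 1.32 (activated progenitor), 1.20 (matrix), 1.25 (lysosome) and 1.28 (immediate early), and the part of nuclear RNA was not tested. Against the 129 cells that held a sign gene but no cell cycle rule gene, described below, the same lists were at 1.09 (1.04 to 1.14), 1.08 (1.03 to 1.13), 0.966 (0.888 to 1.05) and 1.0001 (0.903 to 1.11).

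Lineage genes gave a mixed picture at low counts. The oligodendrocyte precursor list was at 1.27 (1.21 to 1.34), of which Olig1 supplied 911 of 1501 UMIs, with none of 4 compared genes past the fold and 4 genes at 0. The immature neuron list was at 1.29 (1.19 to 1.39), with the growth cone gene Gap43 at 1.39 (1.24 to 1.54). Against the 129 cells with a sign gene only, these 2 lists were at 0.974 (0.902 to 1.05) and 1.11 (0.987 to 1.25). Dcx, which defines migrating neuroblasts, had 2 UMIs over the 171 cells. The inhibitory lineage list had 16 UMIs and the excitatory list 8. The astrocyte list was at 1.07 (0.998 to 1.14) with none of 7 past the fold. The posterior HOX genes, the microglia genes and the erythroid genes had 0 UMIs, the endothelial list had 5, the fibroblast list 4 and the mural list 34 UMIs, 30 of them of Cspg4, which oligodendrocyte precursors also express. The LIF receptor and STAT3 list was at 347 against 363 CPM (0.957, 0.817 to 1.11), so the cells that met the rule did not differ detectably in this list at this depth. The pluripotency list had 6 UMIs.

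Within the marker-negative cells the absence of Hes5, Dll1, Dll3, Bnip3 and Chac1 was part of the rule, so the clearest neighbours are the 129 cells that also lacked the 7 cell cycle genes but held a UMI of a sign gene. On the S phase list the ratio of marker-negative to these cells was 1.12 (0.998 to 1.26), on the G2/M list 0.901 (0.841 to 0.965) and on the radial glia list 1.03 (0.999 to 1.07). On these 3 lists both groups were close, within ratios of 0.901 and 1.12. Of 4486 compared genes, 310 (6.91%) were higher and 245 (5.46%) lower by at least 1.5-fold, and with 129 cells on the other side these counts hold more counting error than the comparison with 2265 cells.

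Hypoxia and metallothionein genes were among the genes lower than in these neighbours. Part of this follows from the choice of cells, since Bnip3 and Chac1 were in the rule. The hypoxia and glycolysis list, which contains Mt2 but not Bnip3, was at 2998 against 7806 CPM (0.384, 0.361 to 0.409). Of its 10 compared genes 6 were lower, beside 5.46% of all genes compared with these cells. Mt2 is part of that sum, so its values below are not a separate observation, and the list ratio is not one of hypoxia and glycolysis genes alone. The sum was uneven between the neighbours: per cell they had a mean of 23.4 UMIs of the list, above their upper quartile of 14, with a median of 10, a 90th percentile of 41.2 and a highest value of 251, against a median of 8 and a 90th percentile of 15 in the marker-negative cells. The metallothionein genes Mt1 and Mt2 stood at 735 against 2840 CPM (0.259, 0.230 to 0.291) and 162 against 1416 CPM (0.114, 0.0896 to 0.144), and the oxygen sensor gene Egln3 at 23.4 against 82.7 CPM (0.283). Igfbp5, an insulin-like growth factor binding protein gene, had 5 UMIs against 40 (0.0943, 0.0290 to 0.239), and Cdkn1c, encoding p57, 14 against 30 (0.352, 0.172 to 0.685). Asns, the asparagine synthetase gene of the amino acid response, was at 0.397 (0.265 to 0.586) and Hes1, a Notch target, at 0.635 (0.488 to 0.825). The astrocyte list was at 0.711 (0.652 to 0.776). Of higher genes, Tnc, a matrix protein gene of radial glia, was at 2.03 (1.61 to 2.58) from 275 UMIs, Dgkk at 5.78 from 46 UMIs against 6, and Rnf115 at 4.05 from 43 against 8. Tnc was the only 1 of 17 compared genes of the radial glia list that was higher past the fold. In the same list 3 genes were lower past it, Hes1 among them. Over all genes compared with these cells 6.91% were higher and 5.46% lower. Against all 2265 other cells the hypoxia list was at 0.822 (0.780 to 0.865). When the rule used the 7 cell cycle genes alone, which returned the sign-gene cells to the group, that ratio was 1.49.

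**Figure D4:**
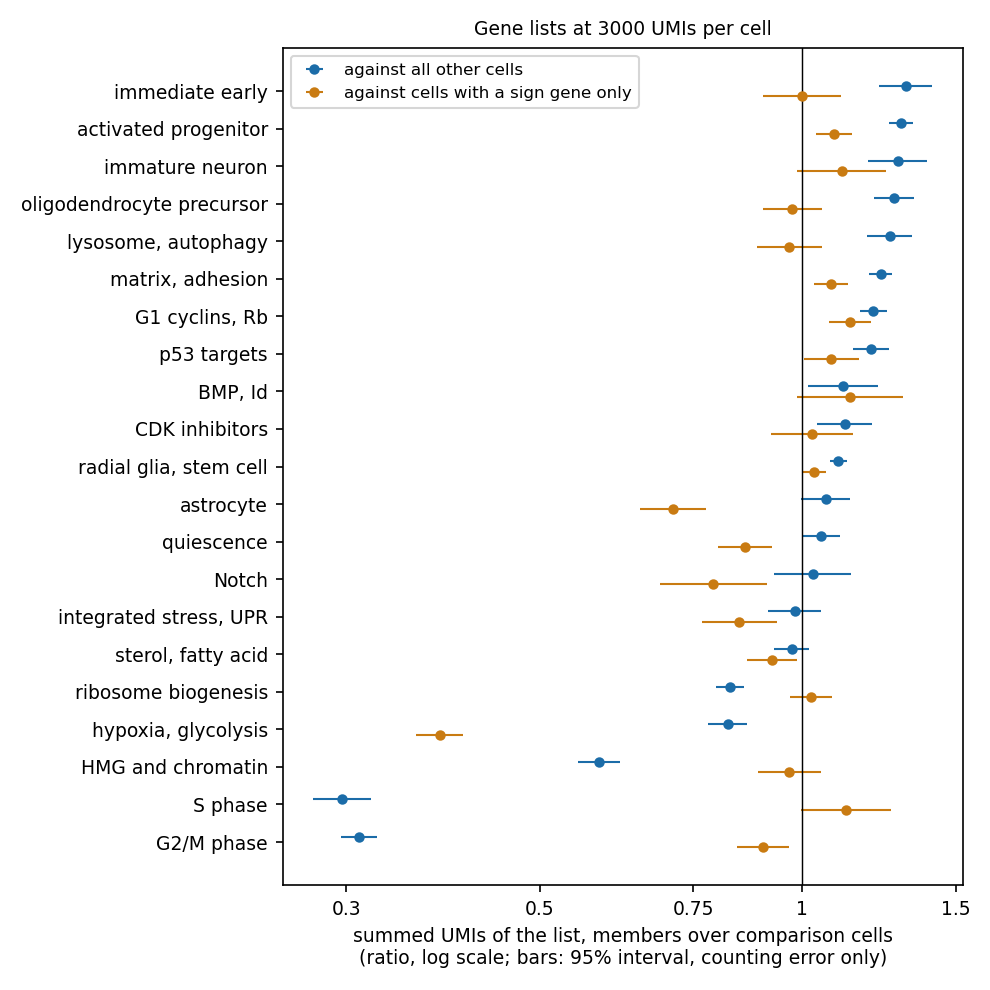
Ratio of summed UMIs, marker-negative cells over comparison cells (x axis, log scale), for 21 gene lists (y axis); blue against all 2265 other cells, orange against the 129 cells with a sign gene but no cell cycle rule gene, bars for the 95% interval of counting error. The S phase and G2/M lists are near 0.3 in blue and near 1 in orange, and the hypoxia list is at 0.822 in blue and 0.384 in orange.

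Marker-negative cells were then placed beside cells with few and with many rule UMIs. The order used the values that chose the cells, and Mxd4, Pdcd4 and Prss23 were named for a high ratio of the cells at 0 rule UMIs to the rest, so the direction was set by the choice and the sizes of the steps are a description. Cells were ordered by how many UMIs of the 12 rule genes they held before thinning: 171 held 0, 220 held 1, 209 held 2, 416 held 3 to 5, 405 held 6 to 10 and 1015 held over 10. The mean of the S phase and G2/M lists outside the rule was 14.7, 17.2, 21.03, 28.2, 45.6 and 69.2 UMIs per cell in that order, so cells with a single rule UMI were much closer to those with 0 than to the cells with over 10. Mxd4, the Myc antagonist gene, was lower in each next group, from 271 through 258, 246, 188 and 109 to 54.5 CPM. Pdcd4 went from 232 to 70.0 CPM and Ccnd2 from 2175 to 1180 CPM, in the same direction throughout. Prss23 was at 134 CPM with 0 rule UMIs and at 77.3 with 1, so the gap lay at the first step, and it stood between 66.7 and 72.1 CPM in the next 3 groups and 35.1 CPM in the last. Cdkn1a did not follow the order throughout, with 1131 CPM at 0, 744 CPM at 6 to 10 and 941 CPM over 10. Sparc did not either, with 343 CPM at 0, 273 CPM at 1, 343 CPM at 2 and 148 CPM over 10. The radial glia list went from 51.2 to 43.6 UMIs per cell and ribosome biogenesis from 17.2 to 22.5. Cells with more rule UMIs were also deeper, with a median of 6749 UMIs in the last group, which is why the means were taken after thinning.

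**Figure D5:**
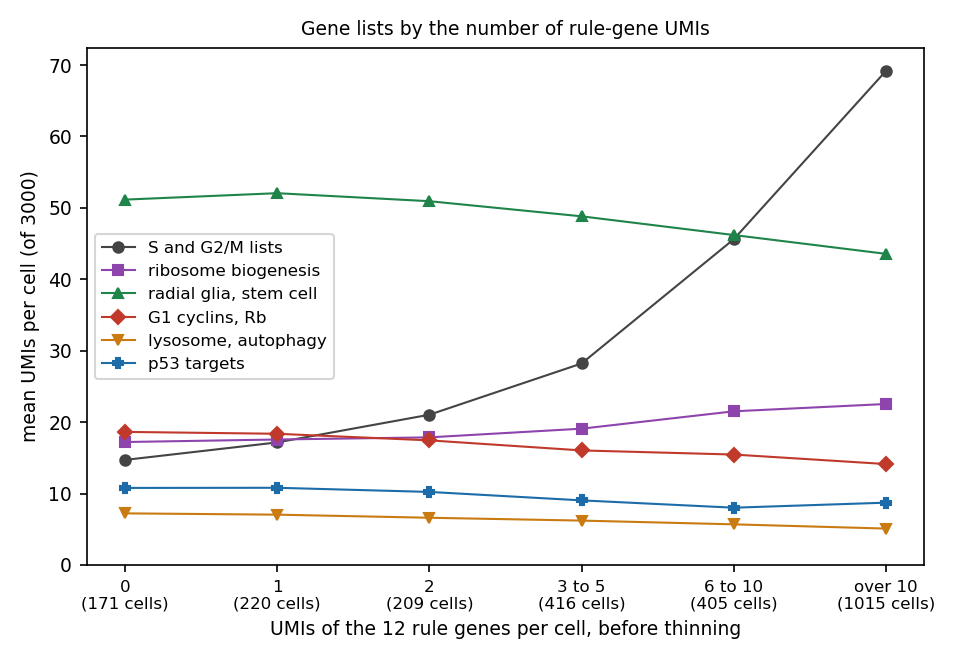
Mean UMIs per cell of 6 gene lists after thinning to 3000 UMIs (y axis), by the number of rule-gene UMIs the cell held before thinning (x axis, with the number of cells). The S and G2/M lists climb from 14.7 to 69.2, while radial glia genes, G1 cyclins, lysosome genes and p53 targets lie lower at the right end than at the left.

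The single rule UMI was looked at by kind. The 158 cells with 1 UMI of a cell cycle rule gene and no sign gene had 18.0 S and G2/M UMIs and Mxd4 at 283 CPM, and the 62 cells with 1 sign UMI and no cell cycle rule gene had 15.1 UMIs and 194 CPM. At the UMI minimum the rule had no visible edge either: 41 of 335 cells (12.2%) within the first 500 UMIs above it had none of the 12 genes, with the S and G2/M lists at 5507 CPM unthinned, and 41 of 316 (13.0%) within the 500 UMIs below it had none, at 5269 CPM. Within the marker-negative cells the mean of the S and G2/M lists was 16.4 UMIs at 3000 to 3999 UMIs and 13.1 in the 11 cells of 7000 or more, where the absence of the rule genes rests on more counts. The others of the same depths had 41.3 and 56.0.

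The marker-negative cells were not uniform. The spread of each gene over the 171 cells was measured as the variance of UMIs per cell divided by the mean, which is 1 for random counting alone. Over 4970 genes with a mean of at least 0.1 UMI the median was 1.11, and 82 genes were over 2. Malat1 had the widest spread, 9.32, with at most 89 UMIs in a cell and none in 2 of them, followed by the mitochondrial ribosomal RNA gene mt-Rnr1 at 9.08 and Mt1 at 8.36. Hbegf, encoding a ligand of the epidermal growth factor receptor, was at 8.05, with 119 cells at 0 and 1 cell at 25 UMIs. Ednrb was at 6.24, against 2.70 in the other cells, with 92 cells at 0 and a highest value of 20, so its higher mean came from a minority of cells. Fabp7, Apoe, Car3 and Serpine2 were at 6.28, 6.21, 5.58 and 5.15; of these Apoe, the lipid carrier gene of astrocytes, was more spread in the other cells, at 15.9, as was Mt1, at 33.4. The genes with most UMIs were the mitochondrial mt-Rnr2, mt-Nd1 and mt-Cytb, Fabp7 at 7456 CPM, Ckb, encoding brain creatine kinase, at 7174 CPM (ratio to the other cells 1.32, 1.28 to 1.37), Actb, Tmsb4x, Dbi, Txn1 and Rps26.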

How the data were processed

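Primary LIF neurospheres of 2 labelled samples were profiled by Drop-seq. The authors deposited 1 table of whole-number UMI counts (19144 genes, 4000 barcodes of 12 bases, 17591915 UMIs), not normalized. The submitters' processing notes name build mm10. Aligner, counter and annotation: not given in the sources used here. No column was left unused, and neither barcodes nor samples could be paired, so no paired or tested comparison was possible.

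Cells with at least 500 genes, at most 10% mitochondrial UMIs and 3000 UMIs were kept, each thinned to 3000 UMIs (seed 0); depth was 3000 to 54060 UMIs. Doublets were not removed and no doublet caller was run. Among the 171 cells 15 barcodes end in an unread base, 3 differ by 1 base from another barcode of the table and 0 pairs of the 171 do. Sums have exact Poisson, shares exact binomial (Clopper-Pearson) and ratios exact conditional binomial intervals at 95%, for counting error only. Compared genes had at least 20 expected UMIs and were called past a 1.5-fold ratio; the scripts were checked on simulated data. The genes named are those of 40 lists (547 genes, 510 in the table), the 20 highest and 20 lowest ratios, the 10 most variable and the 10 most abundant. The cells, lists and rules were chosen with earlier results of these data known; cells with 6 or more rule UMIs were divided in 2 groups after the values were seen. Positions are of GENCODE M21, which held 17959 of 19144 symbols (93.8%), and promoters of RefSeq. Scripts ran in Python 3.11.15 with scipy 1.17.1, pandas 2.3.3, numpy 2.4.6 and matplotlib 3.10.9. A few genes of the lists are not reported here.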

Additional observations from a re-analysis of the deposited data

How the results depend on the processing

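Other settings changed how many cells met the rule. Their number was 262 with a minimum of 2000 UMIs, 49 with 5000, 300 with the 7 cell cycle genes alone, 315 with the 6 proliferation genes alone, 329 with 1 cell cycle UMI allowed and 295 with the rule applied after thinning, against 171. Under the settings that moved it by over 1.5 times, the number of higher genes was 89 (minimum of 5000), 250 (7 genes), 255 (6 genes), 234 (1 UMI allowed), 227 (rule after thinning), 219 (sums not thinned), 6 (2-fold), 21 (at least 50 expected UMIs) and 702 (at least 5), against 135. For lower genes it was 294 (minimum of 5000), 233 (2-fold), 152 (at least 50) and 1192 (at least 5), against 450. A minimum of 1000 genes changed none of these numbers. Against the other cells, the ratio turned for gene Mt2, from 0.492 to 2.66 with the 7 genes and 2.55 with the 6. Both of these rules take in the cells with a sign gene only, where Mt2 stood at 1416 CPM against 162 CPM in the 171 cells. The ratio also turned for Atf5, from 1.51 to 0.663 at a mitochondrial limit of 5%. For Rrp9 it went from 0.612 to 1.21 without unread-base and near-identical barcodes. The cause of these turns was not tested. Over 15 alternatives the S phase list ranged from 0.246 to 0.324 and the G2/M list from 0.266 to 0.339. The precision is that of 171 cells of 3000 UMIs, and a gene under 20 expected UMIs could not be compared. No paired analysis was possible because no barcode is assigned to a sample.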
